A study of Mus musculus with 138 samples.

Results

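The subcortical maternal complex is a protein assembly that the oocyte builds beneath its cortex and that the early embryo inherits. The 6 genes described here, Nlrp5, Ooep, Tle6, Khdc3, Padi6 and Zbed3, were taken by name as genes of the complex, with earlier results of these data known, and all 6 were found among the 25900 genes of both count tables. The 5 embryo groups were compared, and 116 of 135 embryo libraries that reached 100000 counts were used. Khdc3 was listed under the clone name 2410004A20Rik and was matched by its Ensembl identifier.

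Each library held polyadenylated RNA of 1 well with an embryo at the 2-cell stage in the mouse, read alongside DNA methylation and chromatin accessibility by scNMT-seq. In the deletion experiment, 28 libraries were labelled Smarca5 +/- from mat KO mothers crossed to wild-type males (here maternal deletion) and 22 were labelled Smarca5 +/+ (here wild type). Titles in either group name matKO females, the labels name no Cre driver, and the embryo's genotype differs between the groups together with the label, so maternal loss and embryo genotype cannot be told apart. SMARCA5 is the ATPase of ISWI chromatin remodellers, which slide and space nucleosomes. In the TrimAway experiment, wild-type zygotes received an antibody that directs its target to TRIM21 and the proteasome. There, 31 libraries were labelled with the antibody to SMARCA5 (anti-SMARCA5), 20 with IgG as a control antibody, and 15 came from embryos that were not injected. The libraries of injected embryos were made at least 24 hours after injection, and the labels give no such time for uninjected ones. Replicate numbers name pools of embryos that the submitters call technical replicates. Nothing ties a library to a mother, so the p-values measure the spread between embryos of a few pools.

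The complex is laid down during oocyte growth, when its genes are transcribed, and its RNAs are among the maternal transcripts that are degraded as the zygote's own genome is switched on. NLRP5 (MATER), OOEP (FLOPED) and TLE6 form its core, KHDC3 (FILIA) binds that core, and PADI6 and ZBED3 associate with it. Mouse embryos from mothers that lack one of the core proteins usually arrest at cleavage stages, and the complex is linked to cytoplasmic lattices, spindle position and even division.

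Kept libraries held 109007 to 12004992 counts, with a median of 545264.5 in wild type, 1618485.5 in maternal deletion, 1481635 in anti-SMARCA5, 1708008 in IgG and 1460667 in uninjected libraries. Maternal deletion and wild type therefore differed in depth, and replicates 1 and 2 of that experiment were sequenced on different lanes, so that collection and lane cannot be told apart. In that experiment 3 libraries stood apart in Gdf9, an oocyte growth factor gene, and all but well H05 also in Smarca5. They are maternal deletion well A04 and wild-type wells G05 and H05, all of replicate 2. Smarca5 itself had a median of 443 CPM (counts scaled to a library total of 1000000) in wild type, 82.2 in maternal deletion, 336 in anti-SMARCA5, 693 in IgG and 601 in uninjected libraries. Well A04 held 349 CPM of Smarca5 and 24.5 CPM of Gdf9, whose median in its group was 4377 CPM. Wells G05 and H05 held 158 and 209 CPM of Smarca5 and 645 and 350.5 CPM of Gdf9, whose wild-type median was 52.0 CPM. The Smarca5 value of H05 lay within the wild-type range, since a wild-type library of replicate 1 held 191 CPM. Trim21 was at 0 in 1 anti-SMARCA5 library (well C02 of replicate 2) and in all 10 IgG libraries of replicate 1, whereas IgG libraries of replicate 3 reached 1513 CPM. All of these were kept under their labels, and the members' deletion effects are also given without the 3 libraries. Gdf9 went with the members' mean within these groups (Pearson r 0.64 in maternal deletion, 0.67 in wild type). Leaving out libraries picked by Gdf9 can therefore widen the members' difference, and those fits are not an independent check. The gene lists were fitted with all libraries. The summed level of 9 genes listed as markers of the 2-cell embryo was above 0 in every group but differed. Its medians were 4555 CPM in wild type, 1518 in maternal deletion, 1204 in anti-SMARCA5, 1583 in IgG and 1739 in uninjected libraries. The 9 include the oocyte transcript Zp3 and the maternal effect genes Dppa3, Zar1 and Npm2. The sum therefore mixes maternal RNA with RNA of genome activation genes. Of the 8 tested between maternal deletion and wild type, 3 were higher (Zp3, Zar1 and Npm2) and 4 lower (Zfp352, Tcstv3, Obox3 and Dppa3), and some of these also stand in the lists below. The summed level of 12 cumulus and granulosa cell markers had medians of 0 to 24.4 CPM (wild type 0, maternal deletion 24.4, with a highest value of 91.8 CPM in an anti-SMARCA5 library). The sum of 5 sperm markers had a median of 0 CPM in wild type and 2.91 CPM in maternal deletion, and that of 4 erythroid and immune markers reached 45.5 CPM in maternal deletion and 1271 CPM in an uninjected library. The part of any of these lists in the members' values was not tested. Of the granulosa markers, Inha and Ptx3 were at 0 in every maternal deletion library, and Inha, Inhba, Foxl2, Lhcgr and Col1a2 in every wild-type library. Fewer cells in a well and less RNA per cell cannot be told apart in these counts.

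The genes lie on 5 chromosomes of GRCm38. Nlrp5 spans chr7:23385889-23441922 on the plus strand, Ooep chr9:78376109-78378725 on the minus strand, Tle6 chr10:81590904-81601073 on the minus strand, Khdc3 chr9:73101836-73104443 on the plus strand, Padi6 chr4:140727355-140742643 on the minus strand and Zbed3 chr13:95325237-95337841 on the plus strand, as the tables give them. The spans of Khdc3 and Zbed3 differ from those in GENCODE M21. The exons of Khdc3 overlap those of Gm20509 on the same strand, which held 3189 counts over the libraries of the deletion table and 1856 over those of the TrimAway table, so reads of the 2 genes may be divided between them.

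The 250 bases before the start site are shown for Nlrp5 and Padi6, whose RefSeq start site is also the 5′ end of the gene in GENCODE M21. The Pearson r of their log2 levels was 0.69 in maternal deletion, 0.43 in wild type and 0.45 in anti-SMARCA5 libraries. It was -0.45 in IgG and -0.04 in uninjected libraries. The bases come from RefSeq (GRCm38.p6) and run 5′ to 3′ on the gene's own strand. Capitals mark CANNTG, the E-box that FIGLA and other helix-loop-helix factors bind, and TAATTA or TAATTG, the core bound by the oocyte homeodomain factor NOBOX, each on either strand. The windows are chr7:23385639-23385888 on the plus strand for Nlrp5 and chr4:140742644-140742893 on the minus strand for Padi6.
Nlrp5 promoter: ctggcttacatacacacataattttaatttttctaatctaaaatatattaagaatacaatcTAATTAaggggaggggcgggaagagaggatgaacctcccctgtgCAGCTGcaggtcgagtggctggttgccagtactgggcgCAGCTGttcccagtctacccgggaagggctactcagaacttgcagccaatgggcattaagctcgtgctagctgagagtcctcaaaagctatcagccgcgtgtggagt
Padi6 promoter: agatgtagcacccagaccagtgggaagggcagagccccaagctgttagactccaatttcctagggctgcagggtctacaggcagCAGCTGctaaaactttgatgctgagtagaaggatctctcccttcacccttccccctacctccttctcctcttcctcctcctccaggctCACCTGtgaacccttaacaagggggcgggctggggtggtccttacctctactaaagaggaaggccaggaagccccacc

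CANNTG was found in the windows of all 6 genes, and in 66.2% of 32851 windows of the same length before RefSeq start sites. For the other 4 genes the RefSeq start nearest to the GENCODE 5′ end was used, 7 to 562 bases from it. That of Zbed3, at chr13:95323605, lies before the span counted here, which begins at 95325237. The bases after that start were not found in a GENCODE transcript of the gene, so its window may not be the promoter of the counted RNA. TAATTA was found for Nlrp5 alone of the 6, 189 bases before the start, against 4.84% of all windows. TAATTG was found for Ooep alone, as its reverse complement, against 7.17% of all windows. Both matches in Tle6 were the palindrome CACGTG, a form of CANNTG that 6.02% of windows held. Beyond the marked letters, CCAAT (either strand) occurred in 5 of the 6 windows, all but that of Zbed3, against 33.9% of all windows, and GGGCGG in 4 of the 6, all but those of Khdc3 and Zbed3, against 32.7%. These matches describe the letters and were not tested against binding.

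Zbed3 was by far the most abundant member. It took a median of 93.1% of the counts of the 6 genes in wild type, 84.2% in maternal deletion, 81.1% in anti-SMARCA5, 81.4% in IgG and 83.2% in uninjected libraries. Its median rank among all genes of a library lay between 14 in uninjected and 28.5 in IgG libraries. Per kilobase of exon, the median level in maternal deletion libraries was 1941 CPM for Zbed3, 97.4 for Padi6, 61.4 for Tle6, 58.1 for Nlrp5, 17.8 for Ooep and 15.8 for Khdc3. The first 4 had the same order in wild type, at 1118, 27.8, 16.1 and 12.3 CPM per kilobase, where Khdc3 followed at 4.24 and Ooep at 1.54. The lengths of Khdc3 and Zbed3 came from gene models that differ from those counted, so their place on this scale is approximate.

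Maternal deletion against wild type asks whether the complex's RNAs differ when the mother's Smarca5 was deleted. At the 2-cell stage, RNA of 5 of the 6 genes was higher in maternal deletion libraries at an edgeR adjusted p under 0.05, by 2.28-fold to 7.73-fold, and Zbed3 missed the threshold. Over all 8518 genes tested, 56.6% were called in either direction and 30.3% higher. The median log2 fold change of the 6 genes was 2.21, against 0.18 for all genes tested. Scaling by total counts instead of TMM factors moved the latter to -0.04 and the split of calls from 2580 higher and 2245 lower to 2199 and 2623, so changes are best read relative to the median of all genes.

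Nlrp5 encodes the NLR-family protein at the core. It ran from 0 through a median of 59.7 to 177 CPM in wild type and from 60.2 through 282 to 1146 CPM in maternal deletion libraries. All 28 maternal deletion libraries lay above the wild-type median and 20 lay above every wild-type library, and the lowest of the 28 was well A04. The log2 fold change was 2.78 (SE 0.38, edgeR adjusted p = 4.8e-08), a 6.87-fold difference. It was 2.97 (adjusted p = 1.09e-08) without the 3 libraries that stood apart.

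Ooep, which encodes a small KH-domain protein of the core, was the least abundant member in wild type. It ran from 0 through 3.29 to 38.9 CPM in wild type and from 0.598 through 37.99 to 219 CPM in maternal deletion libraries. Of the latter, 27 of 28 lay above the wild-type median and 14 above the highest wild-type library. The log2 fold change was 2.95 (SE 0.56, edgeR adjusted p = 1.88e-05). Ooep was at or under 3 counts in 12 of 22 wild-type libraries, against 1 of 28 maternal deletion libraries, so the size of this fold is less certain than its direction. The near-absence was not limited to shallow libraries: 4 of 13 wild-type libraries of at least 500000 counts were also at or under 3, and the deepest, with 12004992 counts, had 0. In the libraries of at least 500000 counts, the medians were 4.46 CPM (n = 13) and 33.6 CPM (n = 24).

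Tle6, a member of the Groucho-like corepressor family that binds NLRP5 and OOEP, ran from 7.22 through 49.8 to 153 CPM in wild type. In maternal deletion libraries it ran from 11.6 through 189 to 597 CPM, and 17 of 28 lay above every wild-type library. The groups overlapped at the low end, where 1 maternal deletion library of replicate 1 set the lowest value. The log2 fold change was 2.25 (SE 0.33, edgeR adjusted p = 2.11e-07).

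Padi6, which encodes a peptidylarginine deiminase family protein of the cytoplasmic lattices, ran from 0 through 70.3 to 144 CPM in wild type. In maternal deletion libraries it ran from 46.5 through 247 to 1303 CPM. It showed the clearest separation by count, with 22 of 28 maternal deletion libraries above every wild-type library. The log2 fold change was 2.16 (SE 0.32, edgeR adjusted p = 2.9e-07). Without the 3 libraries that stood apart, the log2 fold changes of Ooep, Tle6 and Padi6 were 3.24, 2.49 and 2.26, all still called (edgeR adjusted p from 2.18e-08 to 6.59e-06). As stated above, the choice of those libraries by Gdf9 can itself widen the difference.

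Khdc3, the KH-domain protein gene whose product joins the core, passed the threshold with a smaller fold than these 4 when all libraries were used. It ran from 0 through 8.69 to 90.5 CPM in wild type and from 3.78 through 32.4 to 107 CPM in maternal deletion libraries. The groups overlapped widely, with 3 of 28 maternal deletion libraries above every wild-type library, although 26 lay above the wild-type median. The log2 fold change was 1.19 (SE 0.49, edgeR adjusted p = 0.0324). The call was lost at 0.0721 with total counts, 0.0617 with no filter on low counts, 0.196 with a minimum depth of 500000 counts and 0.0545 without replicate 1. It was 1.55 with replicate blocks (adjusted p = 0.00352), 1.18 without the 3 libraries that stood apart (adjusted p = 0.0391) and 2.19 without replicate 2 (4.55-fold, adjusted p = 0.0199). In that last fit Khdc3 stood above Tle6 (1.73) and Padi6 (1.54), so the order of the members' folds depends on the replicate. Khdc3 was at or under 3 counts in 12 of 22 wild-type libraries, and in the deeper libraries its medians were 25.7 CPM in wild type (n = 13) and 39.0 CPM in maternal deletion (n = 24).

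Zbed3, a zinc-finger protein gene, ran from 231 through 2495 to 17133 CPM in wild type and from 726 through 4329 to 22451 CPM in maternal deletion libraries. The groups overlapped over most of their ranges, with 20 of 28 maternal deletion libraries above the wild-type median. The log2 fold change was 0.85 (SE 0.42, edgeR adjusted p = 0.0794). A fit with replicate blocks gave 0.90 (adjusted p = 0.04), and without the 3 libraries that stood apart the value was 1.07 (adjusted p = 0.0279), while leaving out replicate 2 gave 0.34 (adjusted p = 0.542). With the block all 6 genes were called higher, beside 31.8% of 8518 genes called higher and 57.6% called in either direction.

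**Figure D1:**
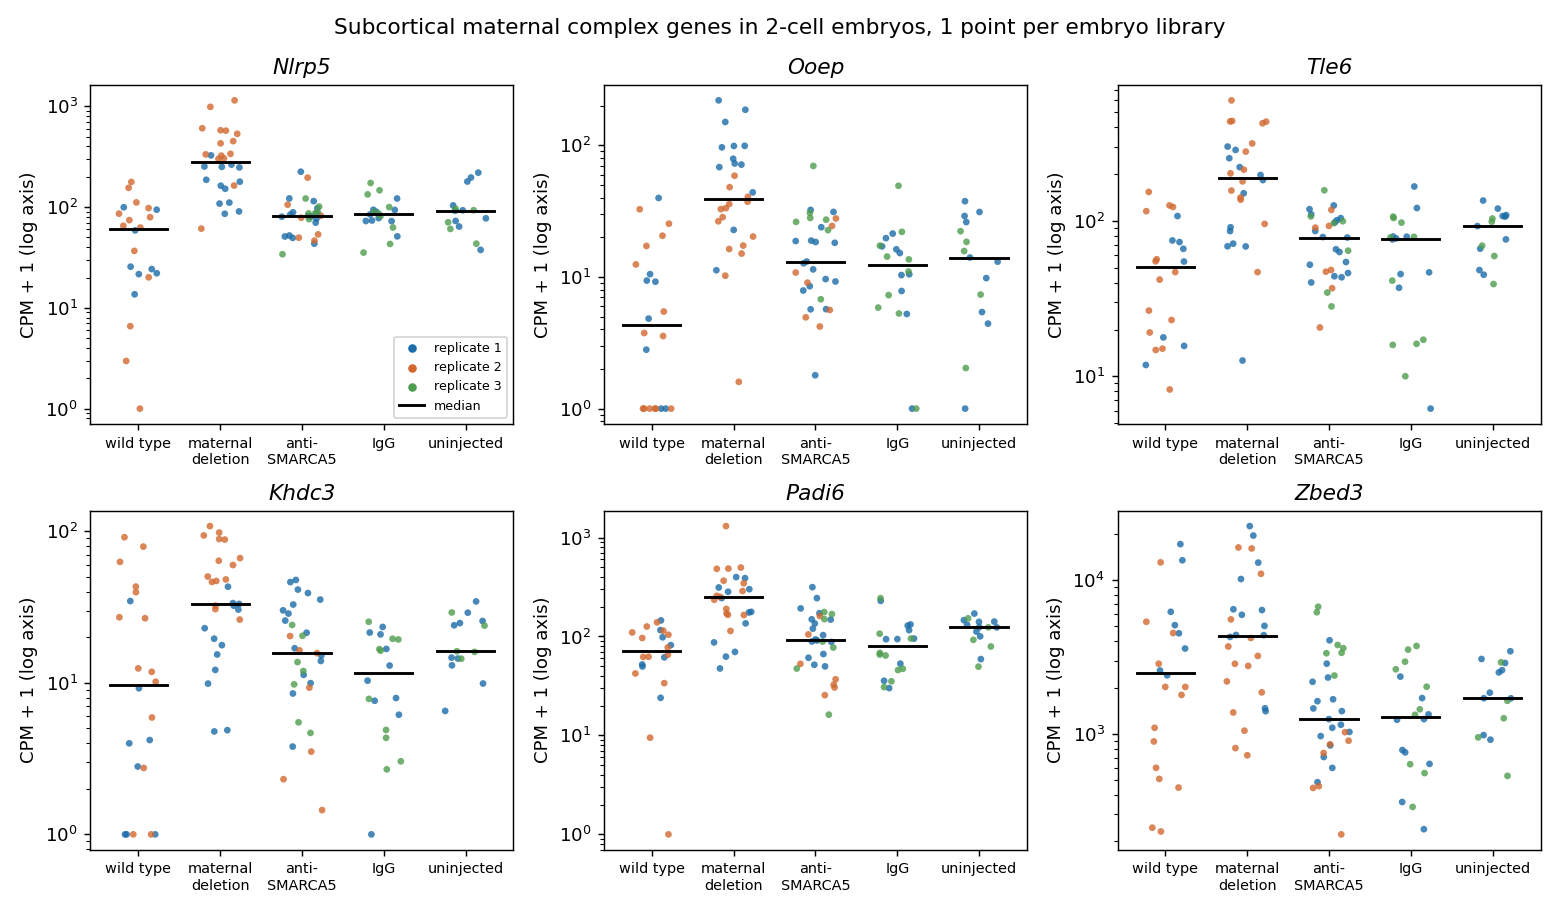
Level of each gene (CPM + 1, log axis) in every kept embryo library, by group, with points coloured by replicate number and a black line at the group median. Maternal deletion libraries sit above wild type for Nlrp5, Ooep, Tle6 and Padi6, with medians of 282, 37.99, 189 and 247 CPM against 59.7, 3.29, 49.8 and 70.3 CPM, while the Khdc3 and Zbed3 groups overlap widely.

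The median was higher in maternal deletion than in wild type in both collections for all 6 genes. Replicate 1 medians of Nlrp5 were 24.0 CPM in wild type (n = 8) and 178 CPM in maternal deletion (n = 13), and those of replicate 2 were 68.7 CPM (n = 14) and 428 CPM (n = 15). Ooep medians were 6.02 and 78.1 CPM in replicate 1 and 2.66 and 27.5 CPM in replicate 2. For Padi6, 8 of 13 maternal deletion libraries of replicate 1 lay above every wild-type library of that replicate, and 14 of 15 did so in replicate 2. The edgeR interaction test of the deletion effect by replicate called 0 of the 6 genes (adjusted p from 0.417 to 0.631, 0 at an unadjusted p under 0.05, 0 with DESeq2), with a background of 0.763% of genes called. Without the 3 libraries that stood apart, Zbed3 was called in that test, with an effect larger in replicate 2 by 1.94 on the log2 scale (adjusted p = 0.0461). In that fit 12.6% of 8380 genes were called, 10.6% higher and 2.03% lower.

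In the deletion experiment Zbed3 levels fell as depth rose. Within wild type its CPM had a Spearman rho of -0.47 with the library total over 22 libraries, and its median was 3593 CPM in the 9 libraries under 500000 counts against 1096 CPM in the 13 above. Within maternal deletion libraries the rho was -0.50 (n = 28). Other members also went with depth there. Nlrp5 had a rho of -0.22 in wild type and 0.52 in maternal deletion libraries. Ooep had 0.25 and -0.56 in the same order, and Khdc3 had 0.46 and 0.58. In the TrimAway groups the rho of Zbed3 was -0.22 in anti-SMARCA5, 0.01 in IgG and 0.10 in uninjected libraries. These are descriptions across libraries of unequal depth, and the part of depth in the results was not tested beyond the fit at 500000 counts, where Nlrp5, Ooep, Tle6 and Padi6 gave log2 fold changes of 2.98, 2.61, 2.41 and 2.27 with adjusted p from 3.17e-05 to 0.002 in edgeR.

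Other proteins of the oocyte that bind or resemble members of the complex were followed with them. Of 5 partners, 3 were higher in maternal deletion libraries and 0 lower, with a median log2 fold change of 1.71 against 0.18 for all genes tested. Uhrf1, a maintenance methylation factor that the complex holds in the cytoplasm, rose by 2.59 (SE 0.37, edgeR adjusted p = 1.38e-07). Nlrp4f and Nlrp14, oocyte NLR genes, rose by 1.78 and 1.71 on the same scale. Nlrp2 had a log2 fold change of 1.18 (adjusted p = 0.08), and Cfl1, which encodes the actin-severing cofilin, 0.18 (adjusted p = 0.556).

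Of 15 tested oocyte transcripts that are mostly cleared by the 2-cell stage, 13 were higher and 0 lower, with a median of 2.25 (11 and 0 with total counts). Among the 4 most abundant of that list, Gdf9 rose by 5.81, and Bmp15, Oosp1 and Tcl1, 3 further oocyte genes, by 1.43, 1.601 and 1.22 on the log2 scale. Of 19 tested maternal effect genes outside the complex, 9 were higher and 3 lower, with a median of 0.84 (7 higher and 3 lower with total counts). Among the 4 most abundant, the demethylation enzyme gene Tet3 rose by 1.81 and Dppa3, which protects maternal methylation, fell by 1.504, and Trim28 (-1.10, adjusted p = 0.0261) and Pms2 (-2.52, adjusted p = 5.35e-05), named after their values were seen, were the others that fell, while Btg4 (0.99, adjusted p = 0.0974) and Brwd1 (0.39, adjusted p = 0.123) did not pass. Of 14 tested genes of 2-cell genome activation, 1 was higher and 8 lower, with a median of -1.68. The most abundant 4 of that list, Sp110, Obox6, Zfp352 and Eif1a, all fell, with log2 fold changes of -2.42, -2.39, -1.93 and -1.39. The 1 that rose was Zfp750 (1.76, adjusted p = 0.0113), named after its value was seen. Tables of relative counts cannot separate fewer transcripts per embryo from a larger total of other transcripts, and no spike-in line was present.

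**Figure D2:**
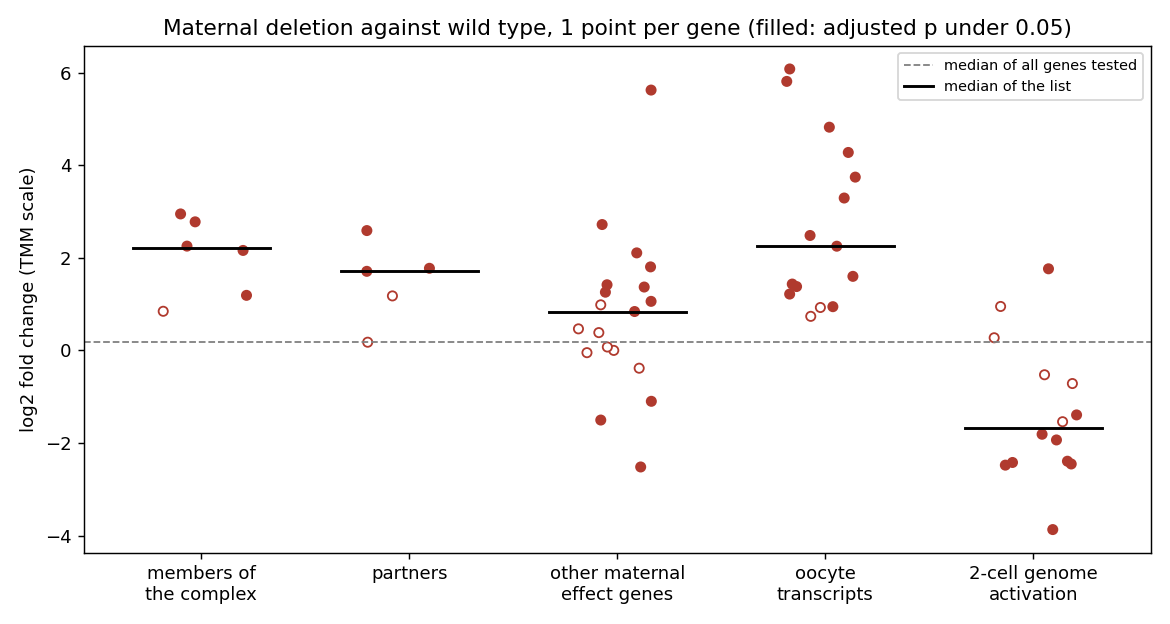
Log2 fold change (TMM scale) of maternal deletion against wild type, 1 point per gene in each list, filled where the edgeR adjusted p was under 0.05, with black lines at list medians and a dashed line at the median of all genes tested. The members (median 2.21) and the oocyte transcripts (2.25) sit above the dashed line at 0.18, and the genome activation genes (-1.68) mostly below it.

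In the TrimAway experiment, none of the 6 genes was called between anti-SMARCA5 and IgG libraries, the comparison that asks whether removing the protein from the zygote changes these RNAs (edgeR adjusted p from 0.124 to 0.584, 3 genes at an unadjusted p under 0.05, 0 with DESeq2). Of all 10447 genes tested, 3.03% were called, 1.73% higher and 1.3% lower (181 and 136 genes, against 17 and 47 with total counts). The log2 fold changes of the members ran from 0.19 for Nlrp5 to 0.77 for Khdc3, with a median of 0.56 against 0.04 for all genes tested, and that of Nlrp5 turned to -0.03 with total counts. This fit held no replicate term, and no IgG library of replicate 2 was kept. With replicate blocks 25.8% of genes were called, among them Zbed3, as given below. IgG libraries of replicate 1 held no Trim21 RNA, so antibody and Trim21 cannot be told apart there.

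Nlrp5 ran from 33.1 through 80.9 to 223 CPM in anti-SMARCA5, from 34.4 through 84.2 to 172 CPM in IgG and from 36.6 through 91.1 to 219 CPM in uninjected libraries. Padi6 ran from 15.2 through 90.1 to 314 CPM, from 29.1 through 80.0 to 243 CPM and from 48.6 through 123 to 169 CPM in the same order. The 3 groups overlapped almost entirely for Nlrp5. For Padi6 the uninjected range was narrower. Of 31 anti-SMARCA5 libraries, 6 lay below every uninjected library and 5 above. Of 20 IgG libraries, 6 lay below and 2 above.

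Tle6 ran from 19.6 through 77.2 to 157 CPM in anti-SMARCA5, from 5.19 through 75.7 to 166 CPM in IgG and from 38.2 through 91.7 to 134 CPM in uninjected libraries. Ooep had medians of 12.1, 11.3 and 13.1 CPM and highest values of 68.8, 48.3 and 36.7 CPM. Khdc3 had medians of 14.7, 10.7 and 15.2 CPM, and 9 of 31 anti-SMARCA5 libraries lay above every IgG library. All 9 came from replicate 1, where the Khdc3 medians were 24.8 CPM (n = 17) and 10.7 CPM (n = 10), whereas in replicate 3 they were 10.98 CPM (n = 7) and 11.1 CPM (n = 10).

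Zbed3, Ooep, Tle6 and Nlrp5 had their highest anti-SMARCA5 medians in replicate 3, and Khdc3 and Padi6 in replicate 1. In replicates 1, 2 and 3 the medians were 77.2, 47.35 and 95.9 CPM for Tle6 and 80.0, 77.5 and 86.2 CPM for Nlrp5. The 7 anti-SMARCA5 libraries of replicate 3 held 2396, 3348, 3368, 3610, 3788, 6184 and 6716 CPM of Zbed3. The 5 uninjected libraries of that replicate held 533, 949, 1264, 1643 and 2922 CPM, so that 6 of the 7 lay above all of them. The 10 IgG libraries of replicate 3 ran from 335 through 1737 to 3731 CPM, and 3 of the 7 lay above all of those. In replicate 3 alone the log2 fold change was 1.36 against IgG (SE 0.45, edgeR adjusted p = 0.0427) and 2.06 against uninjected (SE 0.43, adjusted p = 0.00515). Those fits called 16.5% of 9547 genes (6.97% higher) and 26.7% of 8697 genes (15.1% higher). In replicate 1 alone the Zbed3 change was 0.78 against IgG (SE 0.32, unadjusted p = 0.0205, adjusted p = 0.155), with medians of 1248 CPM (n = 17) and 1011 CPM (n = 10) and 12 of 17 libraries above the IgG median. Against uninjected it was -0.10 in replicate 1 (adjusted p = 0.831), where the uninjected median was 2183 CPM (n = 10).

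Ooep in replicate 3 had medians of 26.3 CPM in anti-SMARCA5 (n = 7), 11.3 CPM in IgG (n = 10) and 14.7 CPM in uninjected libraries (n = 5). As for Zbed3, 6 of the 7 lay above all 5 uninjected libraries, and 1 of the 7 lay above all IgG libraries. In replicate 3 alone its log2 fold change was 1.36 against IgG (SE 0.63, edgeR adjusted p = 0.122) and 1.79 against uninjected (SE 0.71, adjusted p = 0.0673). Neither passed the threshold, and in replicate 1 alone the values were 0.40 and 0.14.

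In a fit with replicate blocks, Zbed3 was the 1 member called between anti-SMARCA5 and IgG, at 0.99 (SE 0.26, edgeR adjusted p = 0.00689), where 25.8% of all genes were called. The test of whether the anti-SMARCA5 effect differed between replicates 3 and 1 called 0 of the 6 genes (edgeR adjusted p from 0.526 to 0.965, 0 at an unadjusted p under 0.05, 0 with DESeq2, background 0.366%, 0.0495% higher and 0.317% lower). Zbed3 gave 0.59 there (SE 0.54, adjusted p = 0.629), so the difference between the pools did not pass. Replicate 2 of anti-SMARCA5 had the lowest Zbed3 values, from 222 through 751 to 1026 CPM (n = 7), and no IgG library of that replicate was deep enough to set beside it. Smarca5 RNA was lowest in the pool where Zbed3 was highest, with anti-SMARCA5 medians of 387 CPM in replicate 1, 242 CPM in replicate 2 and 134 CPM in replicate 3. Trim21 RNA was at 0 in the IgG libraries of replicate 1 and ran from 0 to 1513 CPM in those of replicate 3. The part of either in these values was not tested.

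**Figure D3:**
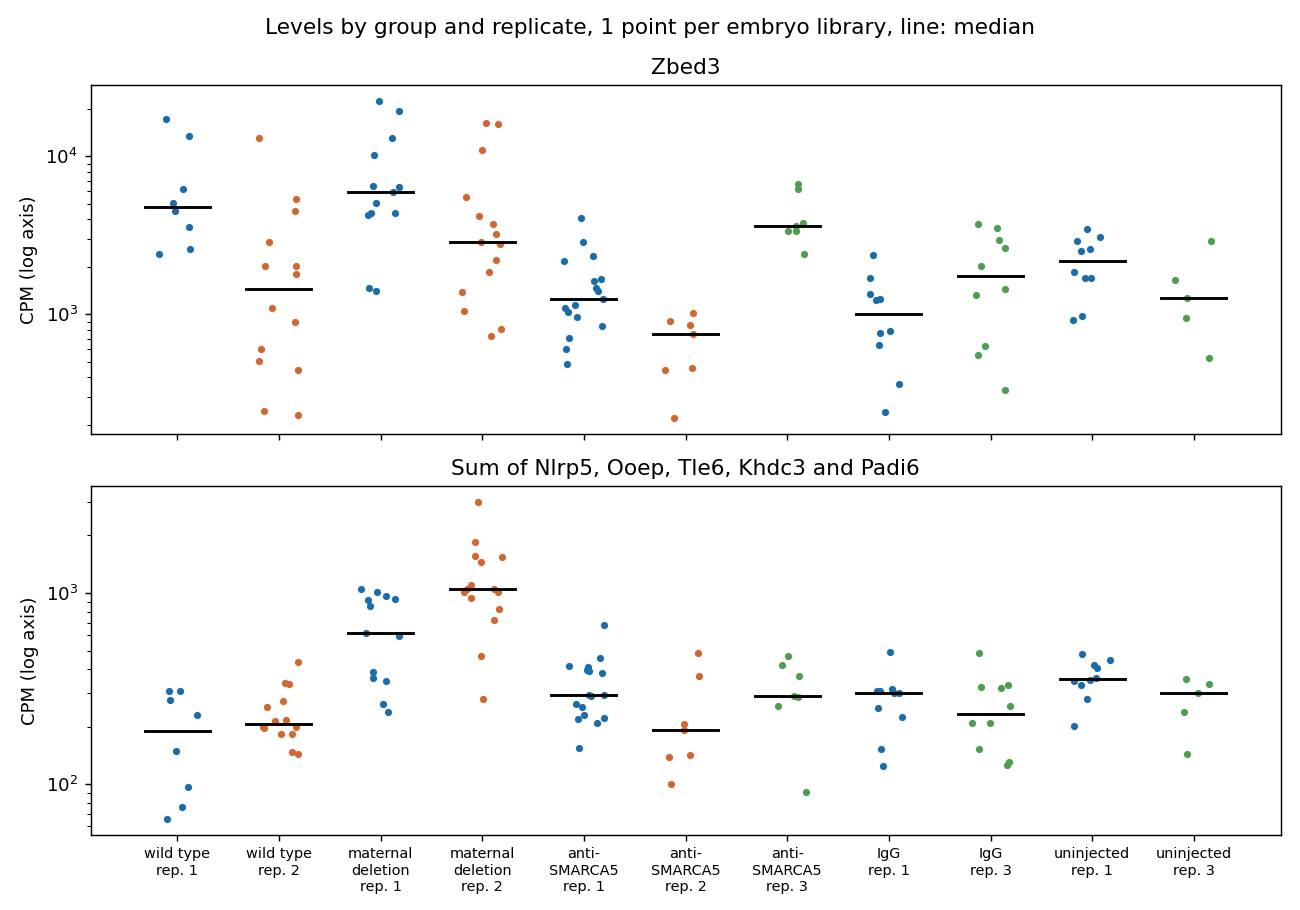
Zbed3 (upper panel) and the summed level of the other 5 genes (lower panel) in CPM on log axes, by group and replicate number, 1 point per library with a line at the median. Zbed3 in the 7 anti-SMARCA5 libraries of replicate 3 has a median of 3610 CPM, above the medians of 1248 and 751 CPM in replicates 1 and 2 of that group, while the sum of the other 5 genes is highest in the maternal deletion pools.

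The partners of the complex had a median log2 fold change of 0.39 between anti-SMARCA5 and IgG libraries, and edgeR called 0 of 5. With replicate blocks 2 of 5 were called higher, Uhrf1 at 0.61 (adjusted p = 0.0121) and Nlrp4f at 0.97 (adjusted p = 0.0225). In that fit 25.8% of all genes were called, 12.1% higher and 13.6% lower. Of 20 tested maternal effect genes outside the complex, 0 were higher and 1 lower without the blocks, against 7 and 2 with them. Of the oocyte transcripts 1 of 14 was called, Ybx2 (1.39, adjusted p = 0.0334), named after its value was seen, and 5 of 14 were higher with the blocks. Of the genome activation genes 0 of 18 were called, against 1 higher and 6 lower with the blocks, where Sp110 was at -1.70 (adjusted p = 0.00349) and Obox6 at -1.14 (adjusted p = 0.0208). Against uninjected libraries this list went the other way, with 4 of 18 higher and 0 lower and a median of 0.82. All genes tested there were 17.5% higher and 10.4% lower. With the blocks 3 of the list were higher and 1 lower, and its median for IgG against uninjected was 1.09 without them.

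Against uninjected embryos, none of the 6 genes was called for anti-SMARCA5 (log2 fold changes 0.30 to 0.71, edgeR adjusted p from 0.183 to 0.488, 0 at an unadjusted p under 0.05, 0 with DESeq2), beside a background of 27.9% of 10750 genes, 17.5% higher and 10.4% lower (1885 and 1114 genes, against 409 and 1874 with total counts). The scaling matters here, because the median of all genes was 0.13 with TMM factors and -0.29 with total counts, and Nlrp5, Tle6, Khdc3 and Padi6 took the opposite sign with total counts, at -0.19, -0.16, -0.06 and -0.105. IgG against uninjected gave 0 of 9915 genes (0%), 1440 at an unadjusted p under 0.05 and 261 with DESeq2, and the members ran from -0.44 for Khdc3 to 0.20 for Nlrp5 (adjusted p from 0.56 to 0.97, 0 at an unadjusted p under 0.05, 0 with DESeq2). These 3 comparisons share groups and are not independent of each other.

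The TrimAway effect (anti-SMARCA5 against IgG) was set against the deletion effect in 1 edgeR fit of the 4 groups. It was smaller for 4 of the 6 genes, where 19.2% of 12035 genes were called, 10.5% in that direction and 8.73% in the other. The difference was -2.56 for Nlrp5 (SE 0.42, adjusted p = 3.73e-06), -2.17 for Ooep (SE 0.64, adjusted p = 0.0109), -1.63 for Tle6 (SE 0.39, adjusted p = 0.00162) and -1.58 for Padi6 (SE 0.39, adjusted p = 0.00228). With the replicate block, Ooep missed the threshold, at -1.66 (adjusted p = 0.0733). Without the 3 libraries that stood apart the differences were -2.94 for Nlrp5, -2.80 for Ooep, -2.16 for Tle6 and -1.91 for Padi6, all called (adjusted p from 3.2e-08 to 0.00085), and -0.64 for Khdc3 and -0.61 for Zbed3, not called. Khdc3 (-0.40, SE 0.58, adjusted p = 0.659) and Zbed3 (-0.17, SE 0.54, adjusted p = 0.859) were not called. The 2 experiments came from different tables and lanes, each with its own control group.

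**Figure D4:**
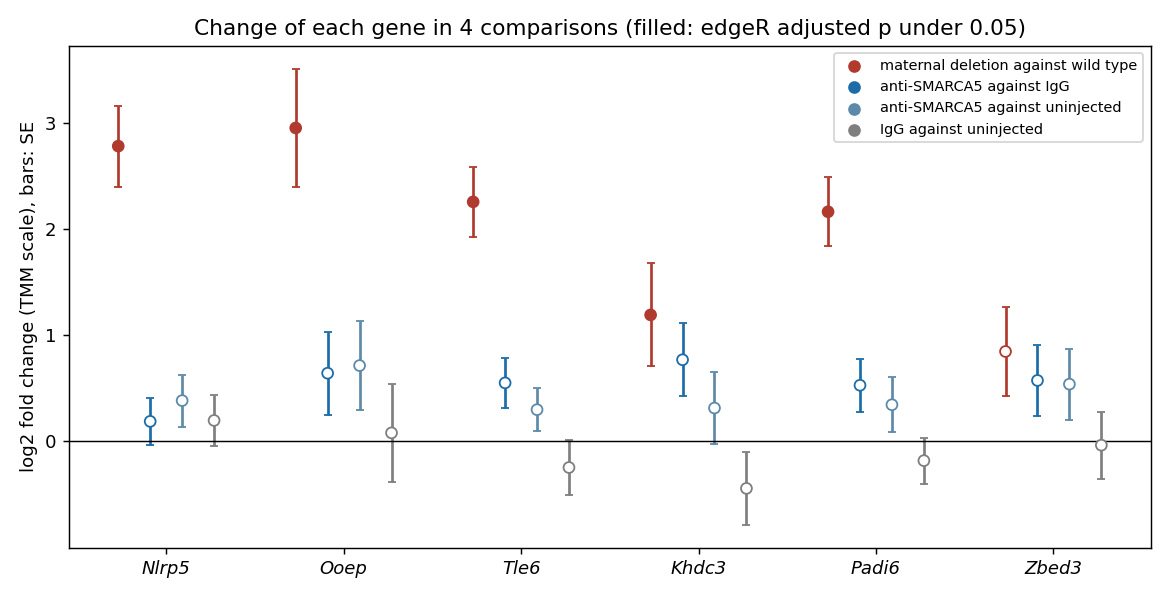
Log2 fold change (TMM scale) of each gene in 4 comparisons, with bars for the SE and filled points where the edgeR adjusted p was under 0.05. For maternal deletion 5 of the 6 points are filled, from 1.19 for Khdc3 to 2.95 for Ooep, and every point of the 3 TrimAway comparisons is open, between -0.44 and 0.77.

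By median level, maternal deletion came first for all 6 genes. Wild type came last for Nlrp5, Ooep, Tle6, Khdc3 and Padi6, with the 3 TrimAway groups between, and it came second for Zbed3. With all libraries and no replicate block, no member was called between TrimAway groups, while Zbed3 was called with the block against IgG and in replicate 3 alone against both controls, as given above. No test was made of levels between the tables, since the experiments differ in lane and pools; the contrast above compares the effects, each taken within its own experiment. The wild-type and uninjected medians, such as 70.3 and 123 CPM for Padi6 or 59.7 and 91.1 CPM for Nlrp5, stand side by side as levels of 2 control groups.

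Within groups, the members did not move as 1 unit from embryo to embryo. Over the 15 pairs of members, the Pearson r of log2(TMM CPM + 1) had a median of 0.01 in maternal deletion (n = 28), 0.04 in wild type (n = 22), 0.31 in anti-SMARCA5 (n = 31), -0.01 in IgG (n = 20) and 0.28 in uninjected libraries (n = 15). Tle6 and Padi6 had the highest r of all, 0.77 in maternal deletion libraries, and Nlrp5 reached 0.69 with Padi6 and 0.63 with Tle6 there. Khdc3 had r = 0.55 with Nlrp5, 0.45 with Tle6 and 0.55 with Padi6 in maternal deletion libraries. Pairs that held Ooep or Zbed3 ran from -0.26 to 0.40 there. In wild type the r of Tle6 with Padi6 was -0.02. Ooep and Khdc3 were each at or under 3 counts in 12 of 22 wild-type libraries, so their r there rests on few counts. Khdc3 and Zbed3 ran in opposite directions in wild type, with r = -0.53. All points of a group share its pools and an unequal depth, so these values are descriptions.

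The genes whose levels most resembled the mean of the 6 members were sought over 50 libraries of the deletion table and 66 of the TrimAway table, among 5012 genes with a mean log2(TMM CPM + 1) of at least 4 in both. The 8 with the highest lower r of the 2 tables were D6Ertd527e, Kif17, Cox10, Oas1d, Epn2, Wasf2, Pecr and Mtmr14. D6Ertd527e had r = 0.84 and 0.79 in the 2 tables and Kif17, a kinesin motor gene, 0.82 and 0.75. The remaining 6 had r from 0.74 to 0.83 in the deletion table and 0.73 to 0.80 in the TrimAway table, where the median over the 5012 genes was 0.03 and -0.07. Part of the r in the deletion table reflects the difference between its groups: within maternal deletion libraries alone, D6Ertd527e had r = 0.59 and within wild type 0.72. Depth and pool are shared by all genes of a library here too.

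The mean level of the oocyte transcript list went with the members' mean in every group, with r from 0.63 in maternal deletion to 0.77 in uninjected libraries. For the genome activation list r was 0.61 in wild type (n = 22) and -0.24 in maternal deletion (n = 28), -0.39 in anti-SMARCA5 (n = 31), -0.30 in IgG (n = 20) and 0.41 in uninjected libraries (n = 15), with no common sign. Smarca5 RNA ran against the members' mean in all 5 groups, with r from -0.68 in IgG to -0.30 in maternal deletion libraries.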

How the data were processed

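The authors deposited 2 tables of raw read counts per gene, 1 for each experiment. Per the submitters' processing notes, reads were trimmed with Trim Galore 0.6.5 and cutadapt 2.3 and aligned with HISAT2 2.1.0 to GRCm38. The counter, its annotation, strand setting and handling of duplicates are not given in the sources used here. Lines sharing an identifier were summed, and libraries under 100000 counts were left out.

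Levels are CPM (counts scaled to a library total of 1000000). Changes were tested with edgeR 4.0.16 in R 4.3.3 (TMM, filterByExpr with a minimum count of 10, robust quasi-likelihood F test, Benjamini-Hochberg over all genes tested, threshold 0.05). All 6 members passed the filter. The script was tested on simulated data. DESeq2 1.42.0, total-count scaling, no filter, other depth minimums, left-out replicates and libraries, and a replicate block were the alternatives. Replicate numbers mark shared pools in the design text, and same-numbered group means deviated together (correlation across genes 0.54 for deletion, 0.60, 0.08 and 0.43 for anti-SMARCA5 against IgG, anti-SMARCA5 against uninjected and IgG against uninjected).

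Named genes were the members, all partners, the 4 most abundant genes of each list, the 8 most like genes, and Smarca5, Trim21 and Gdf9. Other genes of the marker lists were named after their values were seen. Members and lists were chosen with earlier results of these data known.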

Additional observations from a re-analysis of the deposited data

Results flagged for a closer look

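The effect of TrimAway differed from that of the maternal deletion by the contrast of all 4 groups in edgeR for 4 members, and each is given as the TrimAway effect minus the deletion effect in log2 units: -2.56 for Nlrp5, -2.17 for Ooep, -1.63 for Tle6 and -1.58 for Padi6.

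Zbed3 was counted in wells that held no embryo, which enter no comparison. It had 31 of 823 counts in well G03 and 23 of 1875 counts in well H03, above the limit of 3 counts, and 1 of 453 counts in well F05. As shares of the well's total these are 3.77% (95% exact binomial interval 2.57 to 5.30%), 1.23% (0.779 to 1.84%) and 0.221% (0.006 to 1.22%), against 0.0222 to 2.25% with a median of 0.194% in embryo libraries. Nlrp5 had 3, 0 and 1 counts and Tle6 0, 1 and 0 counts in these wells, and the other 3 members 0. The intervals cover counting error only, and the part of such counts in the embryo values was not tested.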

How the results depend on the processing

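Of the values of single members under alternatives, 272 kept direction and side of the threshold, 7 passed it newly, 5 lost it and 16 changed sign, all 16 in TrimAway comparisons or contrasts and none of them past the threshold; the cause was not tested. Nlrp5, Ooep, Tle6 and Padi6 stayed called for the deletion throughout. After deletion the called genes numbered 4825, against 10416 with no filter, and 2801 to 3879 without replicate 2 or 1.

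Anti-SMARCA5 against IgG gave 317 genes, against 1007 with DESeq2, 64 with total counts, 3010 with no filter, 623 with all libraries, 150 with a minimum depth of 500000 counts, 521 without the library with no Trim21 RNA, 90 in replicate 1 alone and 1576 in replicate 3 alone, where 1 member was called. Leaving out 1 replicate gave 0 to 591. With the replicate block it gave 2691 genes and 1 member. Anti-SMARCA5 against uninjected gave 2999 genes, against 6184 with no filter and 1656 in replicate 1 alone; leaving out 1 replicate gave 1 to 2921, and replicate 3 alone called 1 member. The fits of replicate 1 alone, and of replicate 3 alone against uninjected, were chosen after seeing the data. IgG against uninjected gave 0 genes, against 261 with DESeq2, 881 with no filter and 0 to 1 without 1 replicate.

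The deletion effect differed between replicates for 65 genes, against 322 with DESeq2, and 1060 without the 3 libraries that stood apart, where 1 member was called. The anti-SMARCA5 effect differed between replicates for 37 genes, against 303 with DESeq2. TrimAway minus deletion gave 2315 genes, and 1404 with the replicate block. The block changed no call of a member other than those of Zbed3 and Ooep given with the results.

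Signs turned for Nlrp5 in anti-SMARCA5 against IgG with total counts (-0.0300), and in anti-SMARCA5 against uninjected with total counts for Nlrp5 (-0.19), Tle6 (-0.16), Khdc3 (-0.0555) and Padi6 (-0.105). There Khdc3 was -0.40 to 0.49 without 1 replicate and -0.28 in replicate 3 alone, and Zbed3 -0.34 to 1.33 without 1 replicate (lowest without replicate 3) and -0.10 in replicate 1 alone. In IgG against uninjected, Zbed3 was 0.0163 with DESeq2 and -0.88 to 0.76 without 1 replicate, Nlrp5 -0.16 with total counts and -0.15 to 0.73 without 1 replicate, and Ooep -0.25 and -0.23 to 0.50. For TrimAway minus deletion Zbed3 was 0.17 with the replicate block. Ooep and Khdc3 rest on the fewest counts, each at or under 3 in 12 of 22 wild-type libraries and in 4 of the 13 with at least 500000 counts.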
